A study of Mus musculus with 6 samples.

Results

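The genes described here are 10 genes of the FXR axis and of bile acid transport in mouse small intestinal epithelium, out of 55450 gene identifiers in the count table. They were chosen by name, with no threshold on their values: the bile acid receptor FXR (Nr1h4), its target SHP (Nr0b2), the hormone gene Fgf15, the carriers and binding protein that move bile acids across the enterocyte (Slc10a2, Fabp6, Slc51a, Slc51b), the export pumps Abcc2 and Abcc3, and Osgin1. Each symbol matched 1 identifier, and 9 of the 10 passed the filter on low counts. Fgf15 did not, and it was tested only in alternatives, without that filter or where it passed with a library left out.

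The knockout mice were Vil1-Cre-ERT2+ and the control mice Vil1-Cre-ERT2-, and all 6 carried homozygous loxP alleles of Ncor1 and of a second corepressor gene. The villin promoter drives the tamoxifen-inducible Cre in the intestinal epithelium, and per the labels' protocols mice received tamoxifen at 15 mg per 100 g body weight for 5 days at an age of 8 to 9 weeks. Each of the 3 knockout and 3 control polyA RNA-seq libraries came from 1 mouse, and the mice are named by animal number (knockouts 423, 476 and 477; controls 482, 483 and 486). Epithelium was scraped from the opened small intestine with a glass slide after it had been cut into duodenum, jejunum and ileum, and the section behind each library is not stated. Cre was present only in the knockout mice, so effects of the deletions and of Cre itself cannot be told apart.

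Bile acids made in the liver are released into the gut, and most are taken back by enterocytes of the ileum. ASBT (Slc10a2) carries them in across the brush border, the ileal bile acid binding protein (Fabp6) binds them in the cytosol, and the basolateral exporter OSTα-OSTβ, made of a subunit from Slc51a and another from Slc51b, lets them out toward the portal blood. FXR is a nuclear receptor that binds bile acids and, as a partner of the retinoid X receptors, switches on genes such as Nr0b2, Fgf15, Fabp6, Slc51a and Slc51b. Nuclear receptor corepressors such as NCoR1 are recruited by receptors that have no activating ligand bound and lower transcription of their target genes.

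The proximal promoter windows of the genes this account turns on are shown to place the receptor's binding letters beside their values. The windows are RefSeq sequences on GRCm38.p6, from 250 bases before to 50 bases after the RefSeq start, written 5′ to 3′ along the gene's strand. Windows of 8 of the 10 genes were matched, all but Fgf15 and Abcc3. They lie at chr4:133553126-133553425 (Nr0b2, plus strand), chr9:65422724-65423023 (Slc51b, minus), chr16:32487830-32488129 (Slc51a, minus) and chr11:43601513-43601812 (Fabp6, minus). Capitals mark matches to the motifs described after them.
Nr0b2: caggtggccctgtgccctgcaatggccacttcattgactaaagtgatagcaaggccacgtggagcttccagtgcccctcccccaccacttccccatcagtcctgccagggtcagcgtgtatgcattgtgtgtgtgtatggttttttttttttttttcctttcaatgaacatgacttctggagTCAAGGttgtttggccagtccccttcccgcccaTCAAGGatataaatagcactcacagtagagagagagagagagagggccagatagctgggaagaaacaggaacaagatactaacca
Slc51b: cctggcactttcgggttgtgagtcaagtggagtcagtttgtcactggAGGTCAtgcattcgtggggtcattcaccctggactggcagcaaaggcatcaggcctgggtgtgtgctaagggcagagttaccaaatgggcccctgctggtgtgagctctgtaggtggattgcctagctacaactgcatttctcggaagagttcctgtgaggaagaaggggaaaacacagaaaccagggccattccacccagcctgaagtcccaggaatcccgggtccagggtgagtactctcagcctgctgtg
Slc51a: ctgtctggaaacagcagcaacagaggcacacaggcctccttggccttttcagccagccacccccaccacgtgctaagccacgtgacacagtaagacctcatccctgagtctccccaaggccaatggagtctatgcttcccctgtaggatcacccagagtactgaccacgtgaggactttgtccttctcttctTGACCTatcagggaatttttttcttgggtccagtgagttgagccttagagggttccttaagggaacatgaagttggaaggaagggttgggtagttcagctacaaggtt
Fabp6: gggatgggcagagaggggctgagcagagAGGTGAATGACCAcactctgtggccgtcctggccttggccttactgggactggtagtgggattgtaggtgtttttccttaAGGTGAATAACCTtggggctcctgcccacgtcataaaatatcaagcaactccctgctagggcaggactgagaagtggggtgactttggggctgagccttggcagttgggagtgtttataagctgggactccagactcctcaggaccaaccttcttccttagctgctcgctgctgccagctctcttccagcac

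FXR and its partner bind an inverted repeat of the hexamer AGGTCA, searched as AGGTCA, any 1 base, then TGACCT, which reads the same on both strands. With at most 2 mismatches over its 12 fixed bases it was in 1.14% of 32851 windows of this length, and among the 8 genes only in that of Fabp6, which held it at positions -222 (AGGTGAATGACCA) and -142 (AGGTGAATAACCT), counted from the start at +1. Inverted repeats with more mismatches were neither counted nor marked. The Slc51b window holds such a stretch, gggtcattcaccc, downstream of its marked hexamer, and the share of windows with matches this loose was not computed. The hexamer AGGTCA alone, on either strand, was in 16.3% of all windows. It stood at -203 for Slc51b, -58 for Slc51a, -214 for Nr1h4 and -49 for Abcc2. The Nr1h4 window (chr10:89506609-89506908, minus) belongs to a RefSeq start inside the gene, whose annotated 5′ end is at 89533585. Bases beyond these windows were not searched, and the Nr0b2 window held neither motif. It held TCAAGG, the core that NR5A receptors such as LRH-1 bind, at -68 and -35, against 14.4% of all windows with at least 1 copy on either strand. The Abcc2 window also held it, on the other strand at +22. TCAAGG was searched after these windows had been read, and a match describes letters only.

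The targeted gene Ncor1 had 31.3, 36.4 and 22.5 CPM in knockouts 423, 476 and 477, against 140, 137 and 99.3 CPM in controls 482, 483 and 486 (CPM are counts relative to the library total, scaled by TMM). Total counts ran from 23476031 to 34568205 in knockout and from 26199718 to 46835165 in control libraries, and 3 counts correspond to 0.0586 to 0.173 CPM. Of the 5 epithelial markers 4 did not pass the test, and Vil1 fell (log2 fold change -1.20). All 4 haemoglobin genes rose, summing to 35.0 to 531 CPM in knockouts and 7.78 to 21.8 CPM in controls. The 5 leukocyte markers summed to 20.9 to 26.5 CPM in knockouts and 33.0 to 108 CPM in controls, and of these Ptprc fell. Pancreatic acinar markers summed to 32.0 to 46.0 CPM in knockouts and 7.12 to 14.0 CPM in controls. Nearly all of it was Cela1, which rose (log2 fold change 1.86), while Cpa1 and Prss2 lay under 1.1 CPM and Amy2a5 had no count. Mesenchyme and muscle markers summed to 2.59 to 26.2 CPM in knockouts and 4.34 to 17.2 CPM in controls. Hepatocyte markers summed to 2.33 to 3.74 CPM in knockouts and 2.11 to 3.41 CPM in controls, with albumin at no more than 1.61 CPM, and of these Serpina1c fell (-1.79). What part cells of these types play in the results was not tested, and in bulk tissue fewer cells of a type and less RNA per cell cannot be told apart.

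Across the 9 genes tested, 4 rose in the knockout and none fell at an adjusted p under 0.05. These were the receptor gene Nr1h4, its target Nr0b2, the exporter subunit gene Slc51b and the pump gene Abcc3. By the same rule 17.3% of all 15028 genes tested rose and 18.3% fell, 35.6% in either direction (edgeR quasi-likelihood test, Benjamini-Hochberg adjustment over all genes). Slc10a2 had an unadjusted p under 0.05 in the direction of a fall and fell with DESeq2, the 1 gene of the 9 to do so in either. Without knockout 477, 2 of the genes rose. Without control 483, 2 of the 10 genes fell, Slc10a2 and also Fgf15, which passed the filter in that setting. The median log2 fold change of the 9 was 0.21, beside -0.06 over all genes tested. The genes that stand for the ileal part of the pathway, Slc10a2, Fabp6 and Fgf15, lay at low levels in all 6 libraries and did not rise. In 4 of the 10 genes every knockout library was higher than every control library, which held for 23.9% of all genes tested, and in none was every knockout library lower (26.4%; 50.3% of all genes were apart in either direction).

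**Figure D1:**
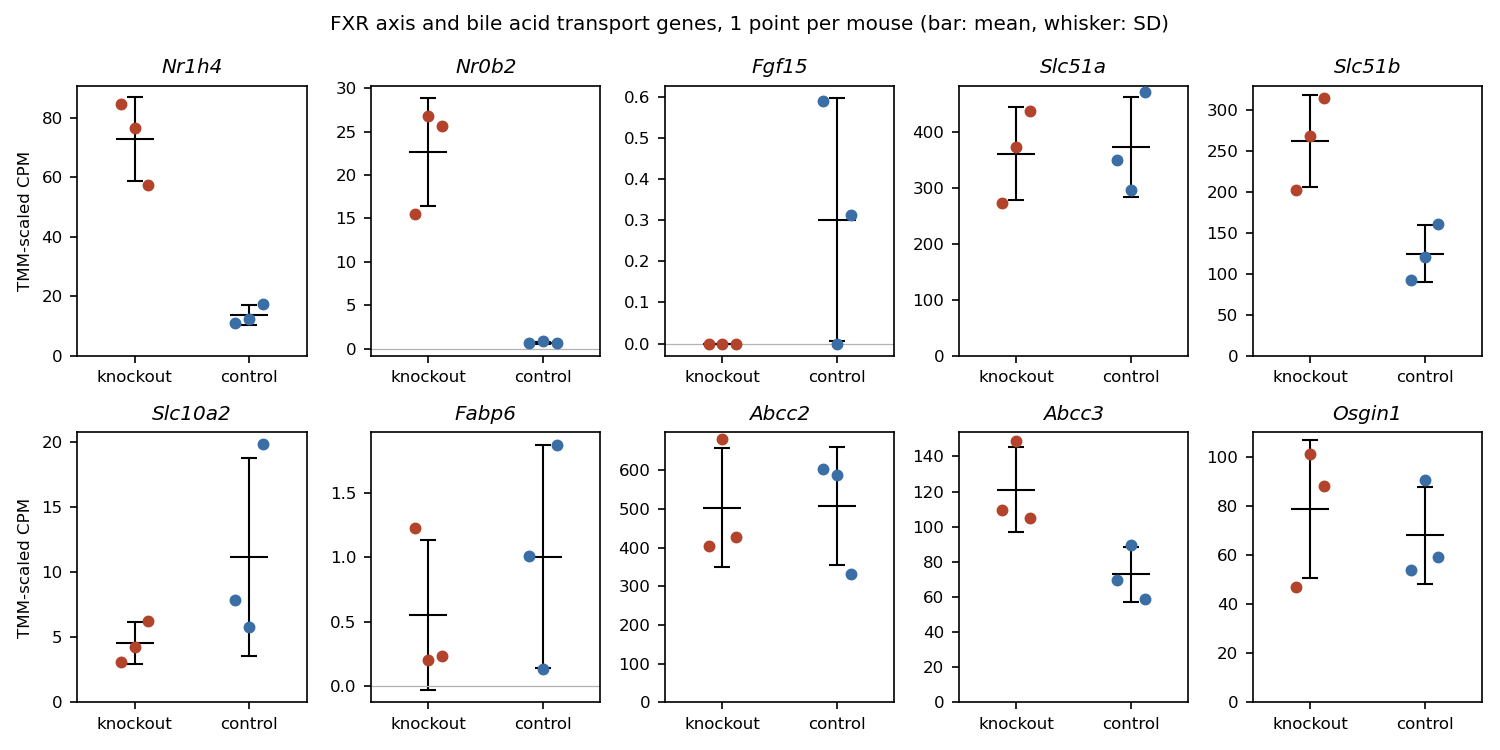
TMM-scaled CPM of the 10 genes, 1 panel each with its own axis, knockout mice on the left and control mice on the right; points are mice, bars the mean and whiskers the SD. The groups are apart in Nr1h4, Nr0b2, Slc51b and Abcc3, with knockouts higher, and overlap in the other 6.

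Nr1h4 (ENSMUSG00000047638, mm10 chromosome 10, 89454234 to 89533585, minus strand) had 84.5, 76.7 and 57.3 CPM in knockouts 423, 476 and 477, against 11.1, 12.3 and 17.4 CPM in controls 482, 483 and 486. The lowest knockout thus stood well above the highest control. The level was 5.35-fold higher in knockouts, or 2.42 on the log2 scale (SE 0.25; adjusted p = 0.000202). It rose under all 16 other settings and left-out libraries, with log2 fold changes of 2.02 to 2.64.

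Nr0b2 (ENSMUSG00000037583, chromosome 4, 133553376 to 133556536, plus strand) encodes SHP, a receptor-like protein without a DNA-binding domain that represses other nuclear receptors, and it is a classical FXR target. Knockouts 423, 476 and 477 had 15.6, 26.8 and 25.6 CPM, against 0.611, 0.844 and 0.664 CPM in controls 482, 483 and 486. In counts, the knockout libraries together held 1682 reads and the control libraries 88. All control values lay close together and far under the knockout range. The log2 fold change was 5.01 (SE 0.32; adjusted p = 2.4e-05), a 32.2-fold higher level, and its unadjusted p was the 17th smallest of all genes tested. Over the other settings and left-out libraries the log2 fold change ran from 4.42 to 5.25 and the call was kept in each.

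The fold change of the target was larger than that of its receptor. Within a library, the ratio of Nr0b2 to Nr1h4 in counts per kilobase of exon was 0.375, 0.711 and 0.909 in knockouts 423, 476 and 477, against 0.114, 0.142 and 0.0785 in controls 482, 483 and 486. Such a ratio does not depend on how libraries are scaled. The mean log2 ratio was -0.68 ± 0.66 in knockouts and -3.21 ± 0.43 in controls (SD, n = 3 each), a difference of 2.52 (exact permutation p = 0.1, two-sided, the smallest that 3 against 3 allows). Of 6 such ratios compared, 5 reached this smallest p, and the values adjusted over the 6 were 0.12 for those and 0.20 for Fabp6 over Nr1h4. The share of other gene pairs that reach it was not computed, and 50.3% of all genes tested were themselves apart between the genotypes.

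Of the exporter subunit genes, Slc51b rose and Slc51a did not pass the test. Slc51b (ENSMUSG00000053862, chromosome 9, 65412714 to 65422955, minus strand) had 203, 268 and 315 CPM in knockouts 423, 476 and 477, against 92.8, 120 and 161 CPM in controls 482, 483 and 486, so the groups were apart. Its log2 fold change was 1.07 (SE 0.27; adjusted p = 0.0142), a 2.10-fold higher level, and 0.62 (adjusted p = 0.0406) with library-size scaling alone. Slc51a (ENSMUSG00000035699, chromosome 16, 32474504 to 32487879, minus strand) had 273, 373 and 437 CPM in knockouts 423, 476 and 477, against 349, 297 and 472 CPM in controls 482, 483 and 486. These ranges overlap almost fully, and the log2 fold change of -0.04 had a 95% interval from -0.64 to 0.55 (adjusted p = 0.908).

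Within libraries the subunit ratio separated the genotypes. Slc51a over Slc51b in counts per kilobase was 0.298, 0.308 and 0.307 in knockouts 423, 476 and 477, against 0.834, 0.546 and 0.647 in controls 482, 483 and 486. The 3 knockout values were nearly equal, and all lay under the lowest control. The log2 ratio differed by -1.13 (exact permutation p = 0.1, two-sided). Slc51b is a short gene (709 exon bases, against 3198 for Slc51a), and across 15018 tested genes log2 fold changes fell with exon length (Spearman rho -0.37 across genes, which are not independent replicates). After each library's smooth length and GC trend had been taken out, Slc51b had a log2 fold change of 0.42 (adjusted p = 0.209), and the difference between the subunits was -0.44 in place of -1.11 between the fitted fold changes. The call of Slc51b was also lost without knockout 477 (log2 fold change 0.93, adjusted p = 0.0556). Exons of Slc51a and of the opposite-strand gene Pcyt1a share 567 bases, and the strand setting of the counting is not given in the sources used here.

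**Figure D2:**
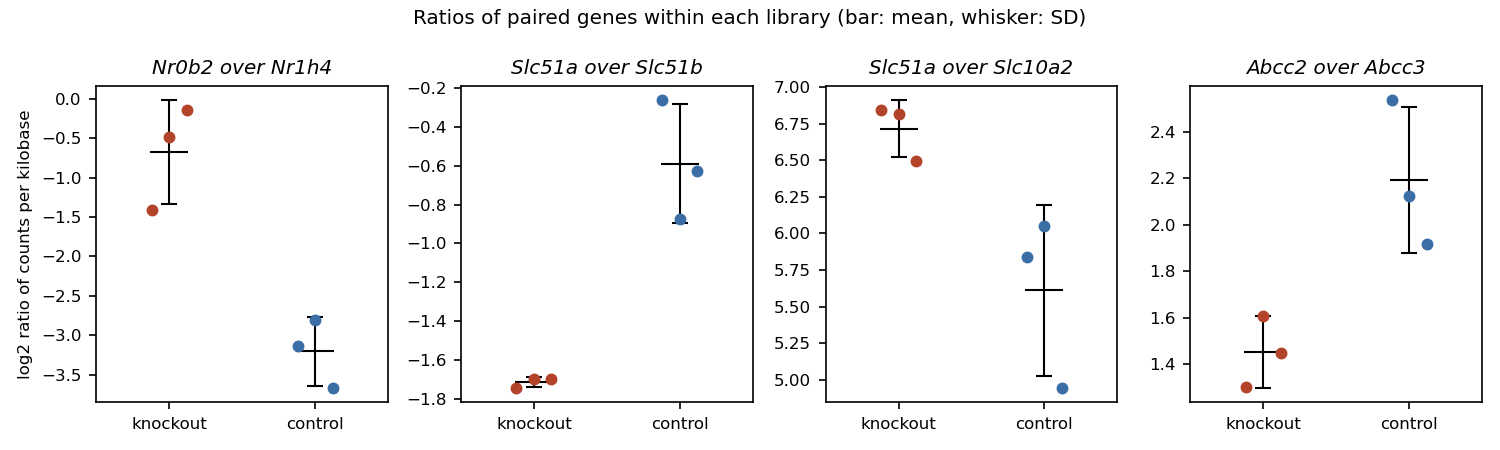
Log2 ratios of counts per kilobase within each library for 4 gene pairs, knockout mice on the left and control mice on the right; points are mice, bars the mean and whiskers the SD. In all 4 pairs the knockout and control mice do not overlap, and the share of other gene pairs for which this holds was not computed. Slc51a over Slc51b lies at -1.75 to -1.70 in knockouts and -0.87 to -0.26 in controls.

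Slc10a2 (ENSMUSG00000023073, chromosome 8, 5083219 to 5105351, minus strand), the brush border uptake carrier, had 3.08, 4.29 and 6.27 CPM in knockouts 423, 476 and 477, against 7.90, 5.81 and 19.9 CPM in controls 482, 483 and 486. Knockout 477 lay above control 483, and control 486 stood far above the other 5 libraries. The log2 fold change was -1.31 (SE 0.46; 95% interval -2.35 to -0.28) with an adjusted p of 0.0501, just over the threshold. With DESeq2 the adjusted p was 0.0179, with library-size scaling alone 0.014 (log2 fold change -1.76) and without control 483 it was 0.0211. Without control 486 the log2 fold change was -0.60 (adjusted p = 0.212), so its size rests largely on that mouse.

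Exit over entry, Slc51a over Slc10a2 per kilobase, was 115, 113 and 90.1 in knockouts 423, 476 and 477, against 57.2, 66.2 and 30.8 in controls 482, 483 and 486. The ratio was higher in every knockout, by 1.11 on the log2 scale (exact permutation p = 0.1, two-sided).

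Fabp6 (ENSMUSG00000020405, chromosome 11, 43596049 to 43601540, minus strand) had 34, 6 and 4 counts in knockouts 423, 476 and 477, against 48, 4 and 96 counts in controls 482, 483 and 486. All 6 libraries lay at or under 1.88 CPM. Mice of 1 genotype differed more than the genotypes did: the highest was 6.17 times the lowest among knockouts and 13.9 times among controls. The log2 fold change of -0.86 had a 95% interval from -2.83 to 1.12 (adjusted p = 0.472), and it was -0.07 to -2.22 when a library was left out.

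Fgf15 (ENSMUSG00000031073, chromosome 7, 144896531 to 144900953, plus strand) encodes the ileal hormone that tells the liver to make less bile acid. It had no count in knockouts 423, 476 and 477, against 28, 0 and 16 counts in controls 482, 483 and 486. A count of 0 allows up to 3 counts, or 0.0997 to 0.173 CPM in a knockout library. Against 3 counts over the knockout group, the 44 control counts, pooled over mice, gave a limit of 8.59-fold lower in knockouts. This limit covers counting error on the knockout side only, not the spread between mice. Control 483 had no count either, as in every knockout. Without control 482, which held 28 of the 44 counts, the limit was 4.96-fold. Without the filter on low counts Fgf15 fell (edgeR, adjusted p = 0.000291). In that fit Nr0b2 had an adjusted p of 1.03e-44, against 2.4e-05 in the main test, and Slc10a2 0.000184, against 0.0501. Values from that fit are therefore not comparable with those of the main test. Fgf15 also fell without control 483, the control with no count, where it passed the filter. Its exons share 761 bases with the antisense gene Gm26793, which had 2 counts over the 6 libraries.

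These ileal genes depend on the section of gut sampled, so section markers were read in the same libraries. Gata4, a transcription factor of duodenum and jejunum that mouse ileum lacks, had 104, 134 and 104 CPM in knockouts 423, 476 and 477, against 121, 105 and 114 CPM in controls 482, 483 and 486. Its log2 fold change was 0.00 (SE 0.20). It was -0.44 (adjusted p = 0.136) with library-size scaling alone and 0.37 (adjusted p = 0.165) with the length and GC trend removed. Of 10 further genes listed as distal markers, 7 fell and none rose; their median was -1.98 on the log2 scale. Among them were Fam151a (-6.46), the metalloprotease gene Mep1a (-5.19), Naaladl1 (-3.45), Amn (-2.34) and Cubn (-1.232), whose products form the ileal vitamin B12 receptor, and Osr2 (-1.62). Clec2h (-0.83), Nts (-0.97) and Pyy (1.53) did not pass the test, but did with DESeq2, and Pyy alone of these was higher in knockouts (unadjusted p under 0.05). With the length and GC trend removed, Cubn lost its call (-0.59, adjusted p = 0.0699), and Nts (-1.51, adjusted p = 0.00752) and Clec2h (-0.96, adjusted p = 0.0266) fell. Without control 486, 1 of the list rose.

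Of 10 proximal markers 5 rose, with a median of 0.94: Pdx1 (3.11), the fatty acid binding protein gene Fabp1 (2.14), Adh6a (1.33), Gda (1.01) and Creb3l3 (0.87). Lct, the lactase gene, fell (-5.18), and Gata4, Onecut2 (0.33), Cybrd1 (1.11) and Ms4a10 (0.78) did not pass. With library-size scaling alone 3 rose, and 3 also rose without control 482, knockout 476 or knockout 477, and without knockout 423, 2 fell. With the length and GC trend removed Fabp1 rose by 1.29. Summed over the 10 distal markers, knockouts held 1251 to 1625 CPM and controls 3383 to 4601 CPM. The distal list was lower in knockouts, as were the point estimates of Slc10a2 and Fabp6. With TMM scaling 5 of 10 proximal markers rose and Gata4 was at 0.00, a value that moved with the scaling. The part of the gut section in those values was not tested. Several markers are themselves metabolic or differentiation genes, so a change of section and a change of expression within a section cannot be told apart.

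**Figure D3:**
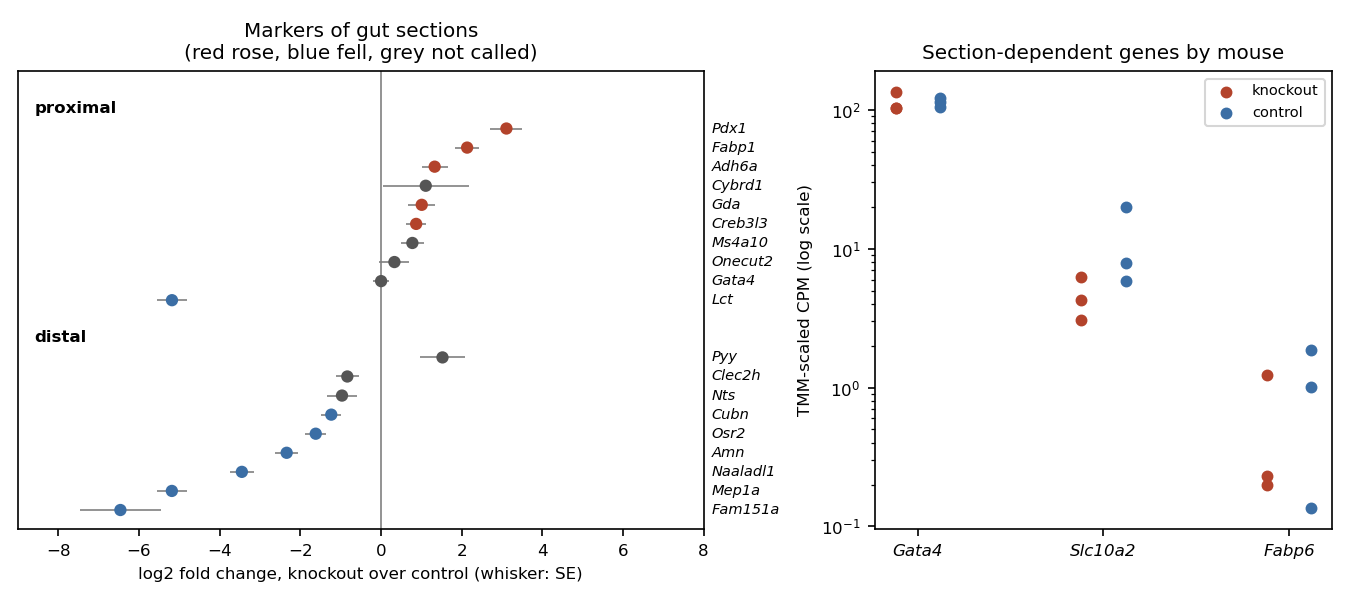
Left, log2 fold change (knockout over control, whisker SE) of 10 proximal and 9 of the 10 distal gut markers, red where a gene rose, blue where it fell and grey where it did not pass. Right, TMM-scaled CPM on a log axis for Gata4, Slc10a2 and Fabp6, with knockout points left of control points; Gata4 lies at 104 to 134 CPM in all 6 mice and Fabp6 at 0.135 to 1.88 CPM.

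Of the export pump genes, Abcc3 rose and Abcc2 did not pass the test. Abcc3 (ENSMUSG00000020865, chromosome 11, 94343295 to 94392997, minus strand) encodes MRP3, a basolateral pump for bile salts and glucuronides. It had 109, 149 and 105 CPM in knockouts 423, 476 and 477, against 69.6, 89.9 and 58.9 CPM in controls 482, 483 and 486. The groups were apart by a small margin, and the log2 fold change was 0.73 (SE 0.24; adjusted p = 0.0358), a 1.66-fold higher level. Only without control 483 was the call kept among left-out libraries; the adjusted p was 0.098 without control 482, 0.0762 without control 486, and 0.0536, 0.12 and 0.0589 without knockouts 423, 476 and 477. With library-size scaling alone it was 0.365, and after removal of the length and GC trend 0.00327 (log2 fold change 1.14).

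Abcc2 (ENSMUSG00000025194, chromosome 19, 43782192 to 43840740, plus strand) encodes MRP2, the brush border pump for conjugated organic anions. It had 404, 680 and 428 CPM in knockouts 423, 476 and 477, against 604, 587 and 333 CPM in controls 482, 483 and 486. The groups overlap throughout, and the log2 fold change of -0.01 had a 95% interval from -0.70 to 0.68 (adjusted p = 0.981). Apical over basolateral pump, Abcc2 over Abcc3 per kilobase, was 2.46, 3.05 and 2.73 in knockouts 423, 476 and 477, against 5.79, 4.36 and 3.77 in controls 482, 483 and 486. All knockouts lay under all controls, a difference of -0.74 on the log2 scale (exact permutation p = 0.1, two-sided).

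Osgin1 (ENSMUSG00000074063, chromosome 8, 119434124 to 119446256, plus strand), an oxidative stress-induced growth inhibitor gene, had 47.1, 101 and 88.2 CPM in knockouts 423, 476 and 477, against 53.9, 90.6 and 59.3 CPM in controls 482, 483 and 486. Knockout 423 was the lowest of all 6 mice and knockout 476 the highest. Its log2 fold change was 0.21 (SE 0.31; 95% interval -0.48 to 0.91; adjusted p = 0.613) and turned to -0.25 with library-size scaling alone.

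**Figure D4:**
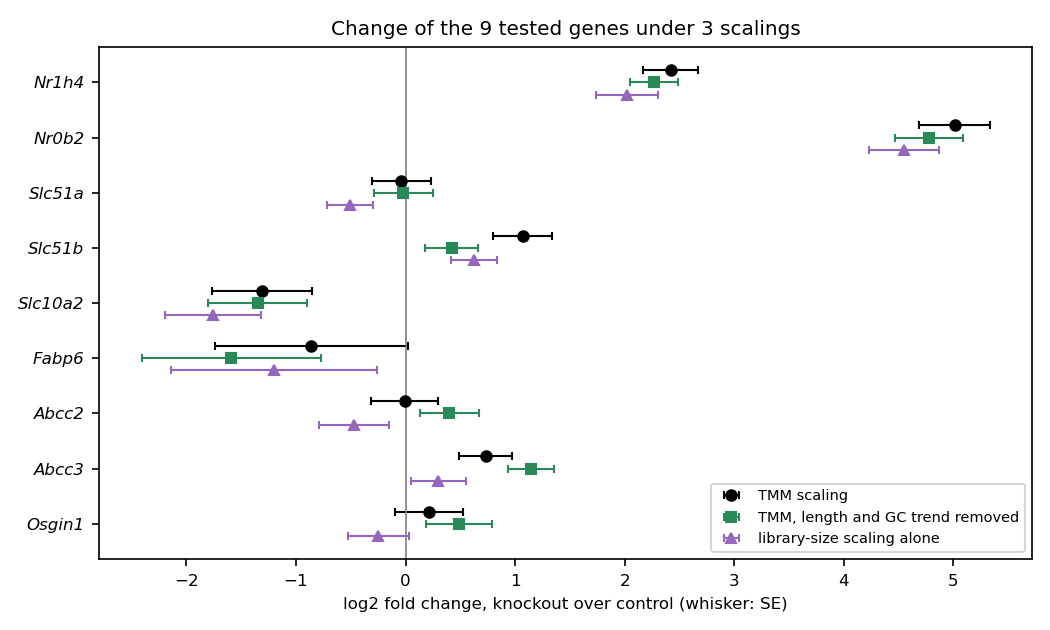
Log2 fold change, knockout over control, of the 9 tested genes with TMM scaling (circles), after removal of each library's length and GC trend (squares) and with library-size scaling alone (triangles); whiskers are SE. Nr1h4 and Nr0b2 lie at 2.02 or more under all 3 scalings, while Slc51b moves between 0.42 and 1.07 and Abcc3 between 0.30 and 1.14.

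Levels of different genes were compared per kilobase of exon, as RPKM from the TMM-scaled values, with exon length taken over all annotated transcripts. In knockouts the order was Slc51b (370 RPKM), Slc51a (113), Abcc2 (59.1), Nr1h4 (31.6), Osgin1 (29.4), Abcc3 (21.2), Nr0b2 (20.0), Fabp6 (1.16), Slc10a2 (1.10) and Fgf15 (0). Neighbours from Nr1h4 to Nr0b2 overlapped in their 3 mice, and so did Fabp6 and Slc10a2. In controls it was Slc51b (176 RPKM), Slc51a (117), Abcc2 (59.5), Osgin1 (25.4), Abcc3 (12.8), Nr1h4 (5.91), Slc10a2 (2.698), Fabp6 (2.10), Nr0b2 (0.624) and Fgf15 (0.0984), where Slc51b overlapped Slc51a, Slc10a2 overlapped Fabp6, and Fabp6 overlapped Nr0b2. Nr1h4 and Nr0b2 stood beside Osgin1 and Abcc3 in knockouts, whereas Nr0b2 was among the lowest in controls. The exporter subunits were the most abundant of the 10 in both genotypes, and ASBT and the ileal binding protein were near the bottom.

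The genes closest to Nr1h4 in pattern, by the root mean square difference of log2 CPM centred on each gene's mean over the 6 libraries, were Lgals9 (0.157), Gstp3 (0.175) and Gm9892 (0.217), out of 10955 genes compared. Those closest to Fabp6 were Defa22 (0.523), Fgfbp1 (0.560) and Defa21 (0.568). Defa21 and Defa22 encode Paneth cell defensins, members of a family whose near-identical copies share reads. Like Fabp6, each of these had its lowest control value in control 483: Defa22 had 51.1, 33.0 and 18.5 CPM in knockouts 423, 476 and 477, against 82.3, 12.3 and 98.3 CPM in controls 482, 483 and 486.

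Other genes of the pathway were read from lists. Of 12 genes of bile acid synthesis and conjugation 8 were tested, of which 1 rose and 2 fell (median log2 fold change -0.18). The mitochondrial sterol 27-hydroxylase gene Cyp27a1, which opens the alternative synthesis route, had 17.95, 23.0 and 18.3 CPM in knockouts 423, 476 and 477, against 93.5, 96.6 and 52.6 CPM in controls 482, 483 and 486 (log2 fold change -2.03, SE 0.26). Baat, which joins bile acids to taurine or glycine, fell by 2.40 on the log2 scale, and the peroxisomal enzyme gene Hsd17b4 rose by 0.70, a call lost with library-size scaling alone (adjusted p = 0.306). No gene of the list rose without control 482 or 483 or without knockout 476 or 477, and 2 rose without knockout 423. Acox2 had a log2 fold change of 0.74 (adjusted p = 0.0766), and rose with the length and GC trend removed (0.89, adjusted p = 0.045). The hepatic enzyme genes Cyp7a1 and Cyp8b1 and the hepatic uptake carrier gene Slc10a1 had no count in any of the 6 libraries.

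Of 13 other reported FXR targets 10 were tested, and 2 rose and 1 fell (median -0.34). Akr1b7, an aldo-keto reductase gene reported as an intestinal FXR target, had 428, 547 and 545 CPM in knockouts 423, 476 and 477, against 91.8, 339 and 144 CPM in controls 482, 483 and 486. Its log2 fold change was 1.40 (SE 0.42; adjusted p = 0.029), and 0.94 (adjusted p = 0.134) without the length and GC trend. Sptlc2, for a subunit of serine palmitoyltransferase in ceramide synthesis, rose by 0.89, and Smpd3, for a neutral sphingomyelinase, fell, with 15.4 ± 3.01 CPM in knockouts and 61.5 ± 8.29 CPM in controls (SD, n = 3 each). Sdc1 had a log2 fold change of -0.69 (adjusted p = 0.0858). With library-size scaling alone none of the list rose and 3 fell, and none rose without control 482 or without knockout 477. Without control 486, knockout 423 or knockout 476, 1 rose, and without control 483, 2 fell.

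Of 19 receptors, partners and regulators of the axis 17 were tested, none rose and 3 fell (median -0.17); with DESeq2 none rose either, and 1, Nr1i2, was higher at an unadjusted p under 0.05. Rxra, which encodes a dimer partner of FXR, had 65.6, 68.1 and 53.7 CPM in knockouts 423, 476 and 477, against 137, 145 and 115 CPM in controls 482, 483 and 486. Nr1h4 and Rxra thus moved in opposite directions. Rxra differed by -1.08 on the log2 scale (SE 0.20, adjusted p = 0.00382), and by -0.58 (adjusted p = 0.0327) with the length and GC trend removed. Rxrb, another retinoid X receptor gene, named after its value was seen, did not pass the test (-0.16, adjusted p = 0.512). Malrd1, which encodes Diet1, a protein that controls Fgf15 production in mouse enterocytes, had 31.8, 38.0 and 37.1 CPM in knockouts 423, 476 and 477, against 135, 125 and 119 CPM in controls 482, 483 and 486 (log2 fold change -1.83, SE 0.19). The glucocorticoid receptor gene Nr3c1 fell by 1.01, and the pregnane X receptor gene Nr1i2 had a log2 fold change of 0.49 (adjusted p = 0.0908). Nr5a2 (LRH-1), the receptor gene whose letters were in the Nr0b2 window, was chosen after its value was seen, and its log2 fold change of -0.27 (SE 0.43) did not pass the test.

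Of 11 other carriers of bile salts, sterols and organic anions 9 were tested, and 3 rose and 2 fell (median 0.38). Abcc4, for the basolateral pump MRP4, had 2.86, 5.98 and 5.29 CPM in knockouts 423, 476 and 477, against 0.464, 0.574 and 0.332 CPM in controls 482, 483 and 486. It was higher in every knockout, by 3.37 on the log2 scale (SE 0.43; adjusted p = 0.000586). Abcg8 and Abcg5, which encode the partners of the apical sterol exporter, rose by 0.93 and 0.67, and neither passed with library-size scaling alone (adjusted p = 0.138 and 0.434); Abcg5, named after its value was seen, also did not pass with the length and GC trend removed (adjusted p = 0.0602). The organic anion carrier genes Slco2b1 and Slco4a1 fell by 2.92 and 2.07. Without knockout 476, 1 of the list rose.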

How the data were processed

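PolyA RNA-seq of 6 mice was read from raw counts per gene, which the authors deposited without normalization. The submitters' processing notes name mm10, STAR 2.7.9a, fastp 0.21.0, Subread 1.6.2 with featureCounts, DESeq2 1.23.10, bcl2fastq and FastQC 0.11.7; the sources used here give neither the annotation nor the strand setting. Variance-stabilised log2 values, also deposited by the authors, served 1 alternative. Identifiers were matched to GENCODE M21 (mm10). Replicate libraries were compared by chi-square (63.8 or more per degree of freedom), and none was a duplicate.

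In R 4.3.3 with edgeR 4.0.16, filterByExpr left 15028 genes, libraries were TMM-scaled, and the robust quasi-likelihood test compared knockout with control. P-values were Benjamini-Hochberg adjusted over all genes, with a threshold of 0.05. SE is the log2 fold change over the square root of F, and 95% intervals use the test's degrees of freedom. Log2 CPM used a prior count of 2 and ratios 0.5 counts. Floors of 3 counts cover counting error only. Within-library ratios were compared with an exact permutation test. The quasi-likelihood test, not the permutation test, was run on simulated counts with known changes. Alternatives were other scalings, filters and tests (DESeq2 1.42.0, limma 3.58.1), length and GC trend removal, and each library left out.

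The genes and lists were chosen with earlier results of these data known. Named from each pathway list are the 4 genes with the smallest adjusted p, with section markers and the 3 genes most like Nr1h4 and Fabp6; some genes are not reported here.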

Additional observations from a re-analysis of the deposited data

How the results depend on the processing

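No paired analysis was possible because the genotypes share no animal numbers. Of 144 values of the 9 tested genes under alternatives, 117 kept direction and side of the threshold, 8 lost the call (Slc51b and Abcc3), 6 gained it (all Slc10a2) and 13 changed sign (Slc51a, Abcc2 and Osgin1, none called). Signs changed for Slc51a with upper-quartile scaling (0.01) and for Abcc2 with median-of-ratios scaling (0.01), upper-quartile scaling (0.04), DESeq2 (0.01), variance-stabilised values (0) and the length and GC trend removed (0.40), and for Osgin1 with library-size scaling (-0.25). With a library left out, Slc51a ran from -0.19 to 0.16 and Abcc2 from -0.27 to 0.15.

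The 10 genes had 2 to 4 that rose and 0 to 2 that fell with a library left out. Besides that, 1 fell with library-size scaling, a filter of 1 CPM in 3 libraries, DESeq2 or trend removal, and 2 fell without a filter, where Fgf15 enters the test (lower, adjusted p = 0.000291). Adjusted p-values without a filter are not comparable with those of the main test. Of all genes, 1133 rose and 4554 fell with library-size scaling, which shifts the median log2 fold change by -0.44; with a library left out 1510 to 2958 rose and 1748 to 2982 fell.

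Of the lists, with library-size scaling 0 synthesis genes rose, 0 other FXR targets rose and 3 fell, 6 receptors and regulators fell, 1 carrier rose and 3 proximal markers rose. With a library left out, 0 to 2 synthesis genes rose, 0 to 2 other FXR targets rose and 1 to 2 fell, 3 to 4 receptors and regulators fell, 1 to 2 carriers rose, 3 to 6 proximal markers rose and 1 to 2 fell, and 0 to 1 distal markers rose and 7 to 8 fell. The causes were not tested. The 6 ratios kept their direction with a pseudocount of 2 and with each library left out. Counts of Fgf15 and Fabp6 were too few to show any but large differences.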
